A study of Homo sapiens with 21 samples.

Results

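Noncoding snoRNA host genes are transcribed and spliced like messenger RNA genes, but the stable product for which they are best known is made from their introns. Small nucleolar RNAs (snoRNAs) are released from the excised introns and guide chemical modification of ribosomal and other RNAs. The joined exons leave the nucleus with only short open reading frames, ribosomes load onto many of them, and they are broken down by nonsense-mediated decay (NMD), a process that needs translation, so that many of these spliced RNAs accumulate when protein synthesis is blocked. Several members of the family carry the 5′ terminal oligopyrimidine start, a C followed by a run of pyrimidines, that also marks the messengers of ribosomal proteins.

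The 9 genes described here are ZFAS1, GAS5, SNHG1, SNHG5, SNHG6, SNHG8, SNHG12, SNHG15 and SNHG16, taken by gene name from a table of 58735 genes, and all 9 were among the 16196 genes with enough counts to be tested. They were selected on results that included their measured difference between 100 µM coumarin and untreated cells, so that difference is given as a description with no test. The RNA came from cells labelled HepG2, an established human hepatoma line, kept for 6 h in medium without serum. Untreated cells received 0 µM of coumarin, a fragrance compound found in plants, and the treated groups received 0.001, 0.01, 0.1, 1, 10 and 100 µM. Each of the 7 groups had 3 libraries, which the design text calls biological replicates. The labels do not say whether these came from separate cultures, so the p-values measure the spread between these libraries.

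Total counts were 27984517 to 43704155 per library, and 3 counts, the limit that a count of 0 allows, correspond to 0.0686 to 0.107 CPM (counts scaled to a common library total), counting error only. The label was checked against 14 hepatocyte markers. Of these, 5 had 0 counts in all libraries, ALB among them, none had enough counts to be tested, and no library exceeded 0.168 CPM for any. Their summed level was 0.0572 to 0.0886 CPM at 100 µM and 0.0589 to 0.137 CPM in untreated cells. The label's tissue of origin thus had almost no marker transcripts here. These markers do not bear out the HepG2 label, and the identity of the cells is uncertain. All values refer to the libraries as deposited. Because whole cultures were sequenced, fewer cells expressing a gene and less RNA per cell cannot be told apart.

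The first 30 bases of 1 annotated transcript of each gene are printed below, because the start of the RNA is a feature that the selection did not use. They come from the GENCODE 29 transcripts on GRCh38, the annotation whose gene identifiers match all 58735 in the table. For each gene the transcript shown is the one in which CTTT begins nearest the first base, or the longest transcript where none has it, and SNHG6 is named only. Capitals mark the unbroken run of C and T that holds CTTT.
GAS5-210, chr1:173867960-173867989, minus strand: CTTTTCgaggtaggagtcgactcctgtgag
ZFAS1-204, chr20:49278642-49278671, plus strand: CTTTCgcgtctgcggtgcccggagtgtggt
SNHG1-216, chr11:62855783-62855812, minus strand: TCTTTTattttcttttgagcgattgtgcga
SNHG5-207, chr6:85678704-85678733, minus strand: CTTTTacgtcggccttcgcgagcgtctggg
SNHG8-205, chr4:118278758-118278787, plus strand: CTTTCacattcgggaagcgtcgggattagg
SNHG12-209, chr1:28581844-28581873, minus strand: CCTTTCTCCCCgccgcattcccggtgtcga
SNHG15-202, chr7:44986608-44986637, minus strand: agacctgtactccgtactccgtacttcgta
SNHG16-205, chr17:76557769-76557798, plus strand: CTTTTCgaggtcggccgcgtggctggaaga

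Among the genes printed, GAS5, ZFAS1, SNHG5, SNHG8 and SNHG16 each had an annotated transcript that began with CTTT at its first base, and SNHG1 and SNHG12 had it from the second base. GAS5-210 and SNHG16-205 opened with the same run, CTTTTC. The motif CTTT, searched on the transcript strand only and required to begin within the first 5 bases, was present in at least 1 annotated transcript of 8 of the 9 genes (88.9%), SNHG15 being the exception. The same search found it in 68.8% of 80 cytosolic ribosomal protein genes, in 28.6% of 21 other noncoding snoRNA hosts and in 15.3% of all tested genes. Genes with many transcripts have more chances of a match, and among tested genes with 5 to 29 annotated transcripts, the range of the 9 genes, the share was 21.9%. Counted by transcript, the motif opened 26 of the 132 transcripts of the 9 genes (19.7%), against 2.79% of the transcripts of all tested genes. In SNHG1 it was in 1 of 25 transcripts, which began with T. Among the genes printed, SNHG16 had the highest share, 4 of 8. These are matches in annotated starts, and the starts used in these cells were not measured.

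The annotation gives the layout of the 9 genes. In GENCODE 29 they had 5 to 29 transcripts each, with 1 to 13 exons. The median spliced length per gene ran from 470 bases in SNHG8 to 1415 bases in SNHG16. The longest open reading frame that began with ATG had a median over transcripts of 29 codons in SNHG6 and 62 codons in SNHG12, the lowest and the highest of the 9 genes. This annotation placed no snoRNA gene inside GAS5, and the other genes each enclosed some: SNHG1 enclosed 7, SNHG12 5, ZFAS1 and SNHG16 3 each, and SNHG5, SNHG6, SNHG8 and SNHG15 1 each. All 22 lay in an intron of at least 1 transcript of their host. SNORA16A has more than 1 entry at the same place in SNHG12, so these numbers count annotated entries and not distinct snoRNAs. The lack of an entry for GAS5 describes this annotation only, and whether GAS5 releases snoRNAs was not measured.

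The snoRNAs themselves were hardly counted. RNA had been selected with poly(dT) beads, which retain RNAs with a poly(A) tail, and mature snoRNAs have none. Of the 22 enclosed snoRNA genes, 18 had 0 counts in all libraries, and the other 4, SNORD12B, SNORD12C, SNORD99 and SNORD1B, summed to 1466 counts over 21 libraries. The 9 host genes together had 818717. Each of the 18 overlapped an exon of an annotated host transcript, and none of the other 4 did. How reads over shared bases were assigned is not given, so host counts may hold reads from these regions, which was not tested. Whether bead selection or read assignment accounts for the 0 counts was not tested either. None of the 4 passed the test at 100 µM (edgeR's quasi-likelihood test with Benjamini-Hochberg adjustment; adjusted p 0.530 to 0.983). The values below are counts per host gene over its annotated exons, in which spliced and unspliced RNA are not separated, and snoRNA output was not measured.

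Levels per gene length covered a wide range. In untreated cells SNHG6 had the highest deposited FPKM (a read count divided by gene length and library size), 165.9 ± 9.25 (SD, n = 3, as for the other FPKM values in this paragraph). GAS5, named for its growth-arrest-specific accumulation, followed with 110.8 ± 1.27 FPKM. SNHG1 at 41.8 ± 3.03 FPKM and SNHG8 at 38.9 ± 0.662 FPKM overlapped in their libraries. ZFAS1, which lies head to head with the protein-coding gene ZNFX1, stood below them at 20.6 ± 0.359 FPKM, just apart from SNHG5 at 19.2 ± 0.780 FPKM. SNHG5, SNHG15 at 18.1 ± 0.935 FPKM and SNHG16 at 17.3 ± 0.976 FPKM each overlapped their neighbour in the order. SNHG12 was the lowest at 8.73 ± 0.438 FPKM. GAS5 supplied 36.0% to 37.0% of the counts of the 9 genes in untreated cells.

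**Figure D1:**
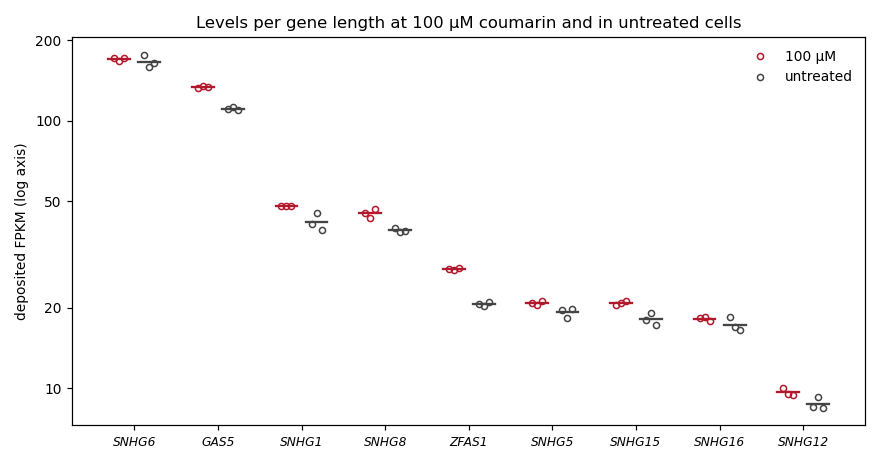
Deposited FPKM on a log axis for each of the 9 host genes, with 3 libraries (circles) and their mean (line) at 100 µM coumarin and in untreated cells. SNHG6 and GAS5 stood above 100 FPKM in both groups, SNHG12 stood at about 9 FPKM, and the ZFAS1 libraries at 100 µM lay clear of the untreated ones.

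ZFAS1 and GAS5 were higher in all libraries at 100 µM than in any other library of the study, and SNHG8, SNHG15 and SNHG1 followed with smaller differences. The contrast of 100 µM with untreated cells is the one the genes were proposed from, so the next values are descriptive. CPM are counts scaled by the trimmed mean of M-values (TMM), and log2 fold changes come from edgeR's model of all 21 libraries, 100 µM minus untreated.

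ZFAS1, the host of the SNORD12 family, had 61.3, 60.8 and 61.9 CPM at 100 µM, against 44.7, 44.7 and 45.9 CPM in untreated cells. Its log2 fold change was 0.44 (SE 0.0508), a level 36.0% higher. The ranges were far apart, and the highest of the other 18 libraries reached 56.7 CPM.

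GAS5, an RNA known to accumulate in arrested or starved cells, had 469, 481 and 475 CPM at 100 µM, against 389, 399.7 and 388 CPM in untreated cells. The log2 fold change was 0.28 (SE 0.0406). All 3 libraries at 100 µM lay above the highest of the other 18, at 437 CPM. Its share of the counts of the 9 genes was 38.4% to 39.1% at 100 µM and 36.0% to 37.0% in untreated cells.

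SNHG8, the host of SNORA24, had 40.8, 39.0 and 42.3 CPM at 100 µM, against 35.4, 34.7 and 34.9 CPM in untreated cells, and its log2 fold change was 0.22 (SE 0.0558). SNHG15, which encloses SNORA9, had 72.6, 74.7 and 75.4 CPM at 100 µM, against 63.4, 68.3 and 61.2 CPM in untreated cells, with a log2 fold change of 0.21 (SE 0.0454). For both genes the groups did not overlap, and for SNHG15 the spread was wider in untreated cells.

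SNHG1, which encloses SNORD22 and SNORD25 among others, had 176, 177 and 176 CPM at 100 µM, against 150.1, 166 and 143 CPM in untreated cells. The log2 fold change was 0.21 (SE 0.0467). Untreated replicate 2 was the highest of its group, and without untreated replicate 3 the log2 fold change was 0.16.

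SNHG12, the host of SNORD99 and SNORA44, had 41.9, 39.7 and 39.5 CPM at 100 µM, against 35.2, 38.7 and 35.1 CPM in untreated cells, a log2 fold change of 0.15 (SE 0.0540). SNHG5, which encloses SNORD50B, had 57.1, 56.5 and 57.9 CPM at 100 µM, against 53.4, 50.5 and 54.0 CPM in untreated cells, a log2 fold change of 0.12 (SE 0.0451). The groups were apart in both genes by small margins: the lowest SNHG5 library at 100 µM, 56.5 CPM, was next to a library at 10 µM with 56.3 CPM.

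SNHG16 and SNHG6 overlapped between the groups. SNHG16, the host of the SNORD1 family, had 95.5, 96.8 and 93.9 CPM at 100 µM, against 95.6, 88.8 and 86.6 CPM in untreated cells, a log2 fold change of 0.08 (SE 0.0475). SNHG6, the host of SNORD87, had 208, 205 and 209 CPM at 100 µM, against 213, 193 and 199 CPM in untreated cells, a log2 fold change of 0.04 (SE 0.0403). The most abundant gene of the 9 per length was thus the one with the smallest difference.

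**Figure D2:**
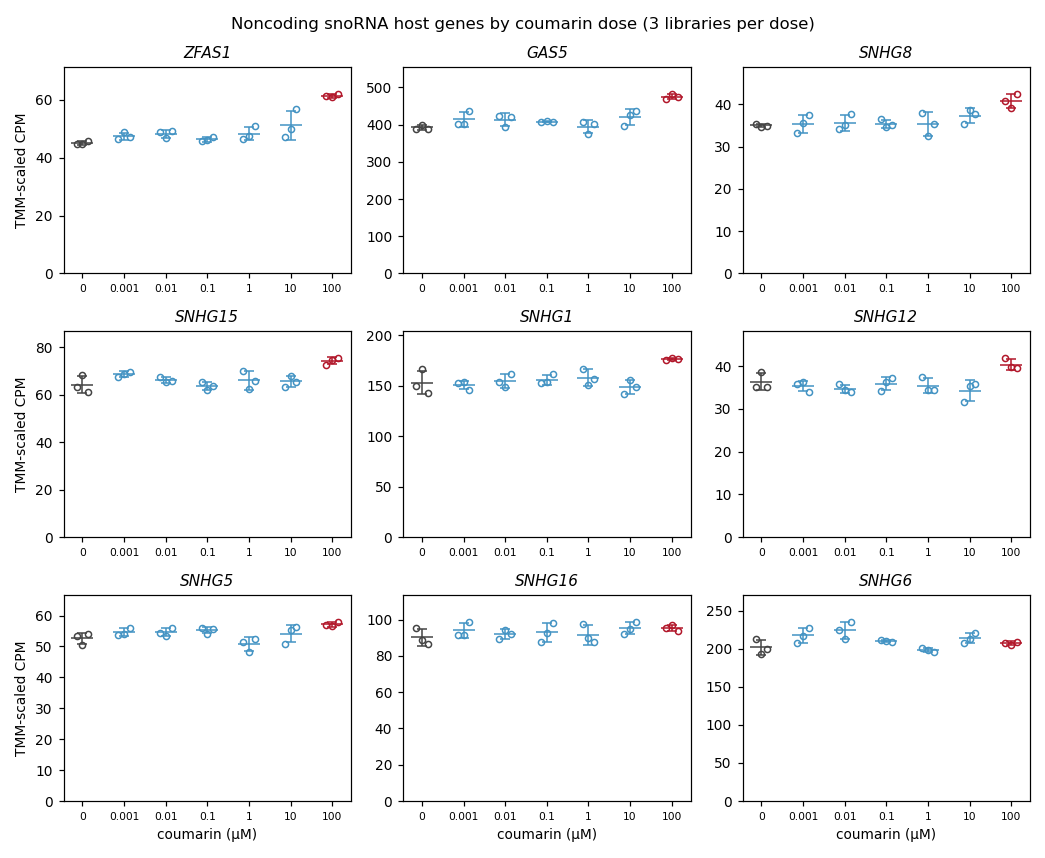
TMM-scaled CPM of each host gene by coumarin dose in µM, with 3 libraries per dose (circles) and their mean ± SD (bars), ordered by fold change at 100 µM; each vertical axis starts at 0. In 7 of the 9 panels all libraries at 100 µM lie above the other 18, and in SNHG16 and SNHG6 they lie among them.

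Across the 9 genes the median log2 fold change at 100 µM was 0.21, beside 0.0025 over all tested genes, with 9 above 0. Libraries at 100 µM lay above all untreated ones in 7 of the 9 genes, as in 13.1% of all tested genes, and above all other 18 libraries in the same 7, as in 2.41% of tested genes. Because the genes were proposed from this contrast, these counts describe them and nothing further is read from them. Together the 9 genes took 0.124% of all counts at 100 µM (mean, SD 0.000577, n = 3) and 0.108% in untreated cells (SD 0.00291, n = 3).

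A feature of the libraries differed between the groups of this contrast. The slope of log2 level on log2 gene length was computed for each library against the mean of all 21. It was -0.0078 to 0.00012 at 100 µM and 0.0075 to 0.0391 in untreated cells, so the groups did not overlap. The highest untreated slope was that of replicate 2, and replicates 1 and 3 had 0.0076 and 0.0075. The slopes at 100 µM lay inside the ranges at 0.001 µM (-0.0298 to 0.0127) and 0.1 µM (-0.039 to 0.0157), and below the range at 1 µM (0.0019 to 0.0182). With an offset for gene length in the model, the median of the 9 log2 fold changes was 0.175, ZFAS1 stood at 0.40, GAS5 at 0.25 and SNHG6 at -0.0071. On that scale, 5 genes had all 100 µM libraries above the other 18.

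Below 100 µM the genes lay close to the untreated level, with no common course over dose. ZFAS1 averaged 45.1 CPM in untreated cells and 47.4, 48.3, 46.4, 48.3, 51.2 and 61.4 CPM at 0.001, 0.01, 0.1, 1, 10 and 100 µM (n = 3 each). GAS5 averaged 392 CPM in untreated cells and 414, 413, 408, 395, 419.7 and 475 CPM over the same doses. The libraries of a dose were most spread at 10 µM for both genes, with an SD of 4.97 CPM for ZFAS1 and 21.8 CPM for GAS5.

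SNHG6 had its highest level at a low dose. It averaged 202 CPM in untreated cells and 217, 224, 210.3, 198, 214 and 207 CPM from 0.001 to 100 µM. Libraries at 0.01 µM spread over 213 to 235 CPM and touched the untreated range at its upper end. SNHG5 averaged 52.6 CPM in untreated cells and 54.6, 54.6, 55.2, 50.7, 54.2 and 57.1 CPM over the doses, with its lowest mean at 1 µM. SNHG8 averaged 34.99 CPM in untreated cells and 35.4, 35.6, 35.4, 35.3, 37.3 and 40.7 CPM over the doses.

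Set against untreated cells, 10 µM gave log2 fold changes of 0.18 for ZFAS1 (SE 0.0513), 0.10 for GAS5 (SE 0.0407), 0.09 for SNHG8 and 0.08 for both SNHG6 and SNHG16. SNHG12 stood at -0.08 and SNHG1 at -0.04. The comparison uses the same 3 untreated libraries as the one at 100 µM, so no agreement between the doses is read from it. The median of the 9 log2 fold changes against untreated cells was 0.06, 0.04, 0.04, 0.01 and 0.08 at 0.001, 0.01, 0.1, 1 and 10 µM.

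A test apart from the contrast that chose the genes was made among the other treated libraries. The 10 µM group was compared with the mean of the 0.001, 0.01, 0.1 and 1 µM groups in edgeR's quasi-likelihood test, and 0 of the 9 genes passed, where 0.222% of all tested genes did. At an unadjusted p under 0.05 there was 1 gene of the 9, ZFAS1, where 8.62% of all tested genes were under it, and DESeq2 and limma also called 0 of the 9. ZFAS1 had 47.0, 49.8 and 56.7 CPM at 10 µM, and its log2 fold change was 0.11 (SE 0.0400; unadjusted p = 0.0118, adjusted p = 0.411 in edgeR). Replicate 3 stood above the others, and without it the log2 fold change was 0.03.

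The remaining 8 genes had log2 fold changes of -0.06 for SNHG1 to 0.07 for SNHG8 in that comparison, with SEs of 0.0318 to 0.0440. GAS5 stood at 0.04 (SE 0.0320; adjusted p = 0.756 in edgeR). The median over the 9 genes was 0.011, beside 0.0027 over all tested genes.

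**Figure D3:**
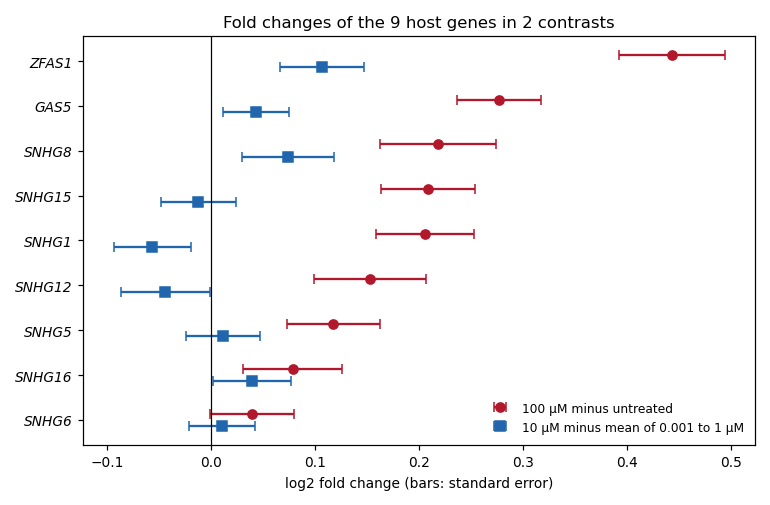
Log2 fold change (horizontal axis) of each host gene with its standard error, for 100 µM minus untreated (circles) and for 10 µM minus the mean of 0.001 to 1 µM (squares), ordered by the first. At 100 µM the values run from 0.04 for SNHG6 to 0.44 for ZFAS1, and at 10 µM they lie on both sides of 0, from -0.06 for SNHG1 to 0.11 for ZFAS1.

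An F-test over the 5 doses from 0.001 to 10 µM also called 0 of the 9 genes, where 0.0988% of tested genes passed. SNHG6 had the smallest p-value of the 9 in this edgeR test (unadjusted p = 0.00225, adjusted p = 0.341), and it was the 1 gene of the 9 with an unadjusted p under 0.05, where 6.60% of all tested genes were. Its means at those doses are the ones given above, highest at 0.01 µM and lowest at 1 µM. DESeq2 and limma also called 0 of the 9.

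Genes that overlap the 9 hosts were examined because the use of strand in counting is not given in the sources used here, so that reads of a host and of an antisense partner cannot be told apart. ZNFX1 lies on the other strand, shares 249 bases with ZFAS1 and had 70.4% as many counts. It had 36.6, 35.6 and 36.4 CPM at 100 µM, against 35.1, 34.9 and 33.6 CPM in untreated cells, and its log2 fold change was 0.07 (SE 0.0499; edgeR's adjusted p = 0.447).

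GAS5 overlaps ZBTB37 and GAS5-AS1 on the other strand, with 3.42% and 0.0910% of its counts, and neither passed the test in edgeR (adjusted p = 0.573 and adjusted p = 0.914). TRNAU1AP shares 8 bases with SNHG12, had 63.4% as many counts and stood at a log2 fold change of 0.0042. MCMDC2 over SNHG6 and AC015802.6 over SNHG16 had under 1% of their host's counts. None of the overlapping genes that were tested was called at 100 µM.

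Other noncoding snoRNA hosts were taken from a list of 21 genes that does not hold the 9, of which 18 had enough counts to be tested. Like the other lists, it was chosen with earlier results of these data known. It is tested in the contrast that the 9 genes were proposed from, so it is no independent check of them. At 100 µM 8 rose and 1 fell in edgeR's quasi-likelihood test, 44.4% and 5.56% of those tested, beside 3.77% and 4.82% of all tested genes, and the median log2 fold change was 0.165. SNHG7 rose with 104, 104 and 102 CPM at 100 µM, against 80.6, 78.7 and 82.3 CPM in untreated cells (log2 fold change 0.36, SE 0.0442, adjusted p = 7.44e-07). SNHG32, listed as C6orf48 and typed there as protein-coding, rose by 0.31 (SE 0.0486), and SNHG20 rose by 0.46 (SE 0.0881). SNHG26, the host of SNORD93, fell to 3.73, 3.89 and 3.70 CPM at 100 µM, against 5.95, 6.30 and 6.10 CPM in untreated cells (log2 fold change -0.69, SE 0.125, adjusted p = 0.000311).

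The other 5 that rose, named after their values were seen, were EPB41L4A-AS1, SNHG17, SNHG21, SNHG29 (listed as LRRC75A-AS1) and SNHG30 (listed as LINC02001), with log2 fold changes of 0.15 to 0.50. DANCR at 0.04 and SNHG14 at -0.03, both well counted, did not pass. The count that rose was 5 without untreated replicate 1, without untreated replicate 2 or without 100 µM replicate 3, and each time SNHG17, SNHG21 and SNHG30 were the calls lost. The SNHG30 call was also lost with the offset for gene length and without 100 µM replicate 1, and the SNHG21 call without any 1 of the 3 libraries at 100 µM. SNHG20 overlaps SEC14L1 and SNHG21 overlaps AC105339.2 on the same strand, and SNHG7, SNHG29, SNHG30 and EPB41L4A-AS1 overlap genes on the other strand, so their counts are uncertain.

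Protein-coding hosts, which also release snoRNAs from introns but make a full-length protein, were set beside them. Of 22 tested, 2 rose (9.09%) and 4 fell (18.2%) at 100 µM, beside 3.77% and 4.82% of all tested genes. The median log2 fold change was -0.0064. HSPA8, the constitutive HSP70 chaperone, fell to 2422, 2404 and 2454 CPM at 100 µM, against 3179, 2993 and 2913 CPM in untreated cells (log2 fold change -0.32, SE 0.0401, adjusted p = 9.48e-07 in edgeR). EIF4G2, a translation initiation factor, fell by 0.20 on the log2 scale and PTCD3, a mitochondrial ribosome-associated protein, by 0.19, the PTCD3 call being lost without untreated replicate 2 or without 100 µM replicate 1. PPAN, a ribosome biogenesis factor that overlaps P2RY11 on the same strand, rose by 0.33. The remaining 2 calls, named after their values were seen, were EEF2 at 0.16 and IPO7 at -0.15.

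No gene for the proteins that package snoRNAs passed the test in the main edgeR fit. Of 17 snoRNP proteins and assembly factors 0 were called at 100 µM, beside 3.77% higher and 4.82% lower of all tested genes. The median log2 fold change was 0.0035. At an unadjusted p under 0.05 there was 1 of the 17, where 23.1% of all tested genes were. That gene was NHP2, a box H/ACA protein, at 0.16 (SE 0.0527, adjusted p = 0.0538 in edgeR). NHP2 was called in 4 of 8 other settings, DESeq2 (adjusted p = 0.0361) and edgeR with no filter on low counts (adjusted p = 0.0102) among them. It was also called in 5 of the 21 fits that leave out a library. Limma called 0 of the 17. NOP56 and NOP58, core box C/D proteins, stood at 0.06 and -0.05, and NUFIP1, an assembly factor, at -0.08.

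Of 21 factors of NMD, 2 rose and 1 fell at 100 µM, 9.52% and 4.76%, beside 3.77% and 4.82% of all tested genes, and the median log2 fold change was 0.013. SMG5, which recruits decay enzymes to UPF1, rose by 0.19 (SE 0.0376, adjusted p = 0.000842 in edgeR), and CASC3, a component of the exon junction complex, rose by 0.15 (SE 0.0341). UPF2 fell by 0.14 (SE 0.0451, adjusted p = 0.0421), a call that is lost in 3 of 8 other settings and in 9 of the 21 fits that leave out a library. GSPT1, a translation termination factor, stood at -0.09 (adjusted p = 0.0624 in edgeR), and DESeq2 and limma called it lower, with adjusted p-values of 0.0156 and 0.0144.

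Transcripts known to be targets of NMD included 5 that rose and 1 that fell among 19. These were 26.3% and 5.26%, beside 3.77% and 4.82% of all tested genes, and the median log2 fold change was 0.0423. Those that rose were ATF3, DDIT3, CARS1 (listed as CARS), ATF4 and GADD45A, which are also known stress-response genes. ATF3, a stress-induced transcription factor, had 17.6, 17.7 and 17.6 CPM at 100 µM, against 4.49, 5.29 and 5.71 CPM in untreated cells (log2 fold change 1.78, SE 0.0949, adjusted p = 1.77e-15 in edgeR). DDIT3, which overlaps MARS on the other strand, rose by 1.01, CARS1 by 0.60 and ATF4 by 0.34. SRSF2, a splicing factor whose own messenger carries an NMD-triggering isoform, fell by 0.16. The remaining 13, splicing factor and ribosomal protein genes among them, were not called.

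**Figure D4:**
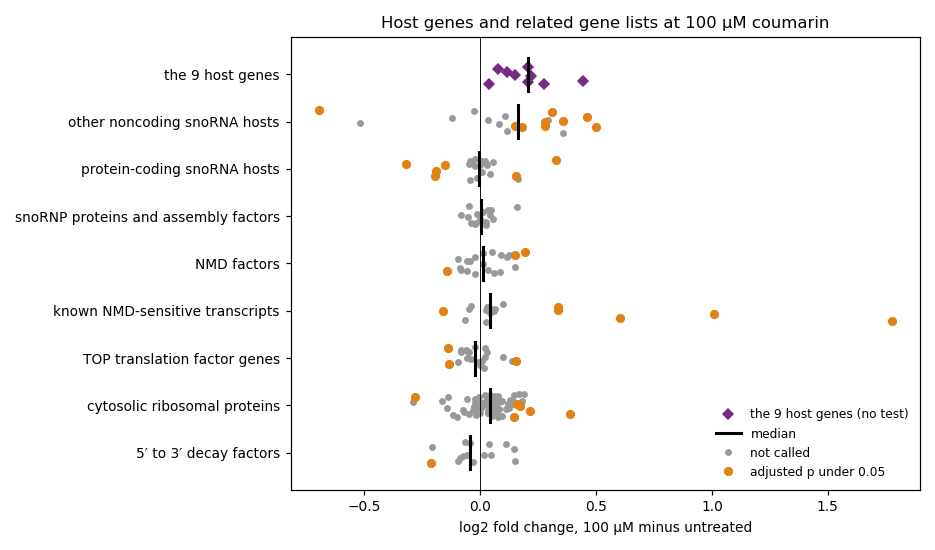
Log2 fold change at 100 µM minus untreated (horizontal axis) for the 9 host genes (diamonds, no test) and the tested genes of 8 related lists (circles, filled orange where the adjusted p is under 0.05), with the median of each as a bar. The median is 0.21 for the 9 genes and 0.165 for the other noncoding hosts, and lies between -0.046 and 0.043 in the other 7 lists.

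Gene lists known for the oligopyrimidine start were examined for the same reason as the start sequences printed above. The search for CTTT found it in 68.8% of the ribosomal protein genes and was not run on the translation factor list. Of 80 cytosolic ribosomal protein genes 5 rose (6.25%) and 1 fell (1.25%) at 100 µM, with a median log2 fold change of 0.043. RPL17 rose by 0.39, RPLP1 by 0.21 and RPS26 by 0.17, and RPS28 fell by 0.28 on the log2 scale. Processed copies of these genes elsewhere in the genome can share their reads, so single values are uncertain, and the RPS26 call is lost with limma, with the offset for gene length and in 2 of the 21 fits that leave out a library. Of 21 translation factor genes listed as having such starts, 1 rose (EEF2, 0.16) and 2 fell (EIF3E, -0.14, and BTF3, -0.13), with a median of -0.021. These were 4.76% and 9.52%, beside 3.77% and 4.82% of all tested genes. The EEF2 and EIF3E calls are lost with limma, with that offset and in 4 and 7 of the 21 fits that leave out a library, and the BTF3 call is lost without untreated replicate 1 or without 100 µM replicate 1. EEF1D stood at 0.14 (adjusted p = 0.055 in edgeR), and DESeq2 called it higher, with an adjusted p of 0.0374.

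Of 15 decay factors that act from the 5′ end, 0 were called higher and 1 lower (6.67%), beside 3.77% and 4.82% of all tested genes. DCP2, the decapping enzyme, fell by 0.21 (SE 0.0606, adjusted p = 0.0223 in edgeR), and that call is lost without untreated replicate 2 or without 100 µM replicate 1. LSM1 and LSM7, subunits of the ring that promotes decapping, stood at 0.15 and 0.14, and EDC3, an enhancer of decapping, at 0.11, with adjusted p-values of 0.152, 0.109 and 0.1 in edgeR. Across the 204 tested genes of the 8 lists, edgeR called 0 at 10 µM against the lower doses and 0 over the 5 doses from 0.001 to 10 µM, with 40 (19.6%) and 27 (13.2%) at an unadjusted p under 0.05, where 8.62% and 6.60% of all tested genes were. Of the 40, 23 were cytosolic ribosomal protein genes, and each other list held 1 to 6 of them. In the first comparison DESeq2 called 2, SNHG26 and RPL23A, named after their values were seen, and limma called 0. In the second DESeq2 and limma each called 0. SNHG26 had a log2 fold change of -0.41 at 10 µM against the lower doses (SE 0.0991; adjusted p = 0.0781 in edgeR).

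Genes whose course over the 21 libraries was most like that of ZFAS1 and GAS5 were found by the root mean square difference of centred log2 CPM, with a minimum mean log2 CPM of 1. For ZFAS1 the 5 nearest were CHMP1B, an endosomal sorting protein (0.0602), PSAT1, an enzyme of serine synthesis (0.0644), SARS, the seryl-tRNA synthetase (0.0689), SLC1A5, a glutamine transporter (0.0691), and AARS, the alanyl-tRNA synthetase (0.0733). ZFAS1 itself varied around its mean by 0.146. CHMP1B overlaps GNAL on the same strand.

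For GAS5, which varied around its mean by 0.0952, the 5 nearest were TXNL4B, a splicing-related protein (0.0424), MYC (0.0491), MED10, a Mediator subunit (0.0521), MARS, the methionyl-tRNA synthetase that overlaps DDIT3 (0.0540), and AARS (0.0543). Among the 9 genes, SNHG8 at 0.0534 and SNHG15 at 0.0549 were the nearest to GAS5. GAS5 was the nearest of the 9 to ZFAS1, at 0.0794. These distances rank likeness over the same libraries and carry no test. They include the 100 µM and untreated libraries that the 9 genes were proposed from. All the nearest genes outside the 9 were also higher at 100 µM, with log2 fold changes of 0.24 for MED10 to 0.405 for SLC1A5.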

How the data were processed

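Per the labels' protocols, RNA of the 21 samples was purified on poly(dT) beads before reverse transcription. The deposited counts are whole numbers of reads per gene and library without normalization, and the deposited FPKM are the authors' values per kilobase of gene length. The submitters' processing notes name HISAT2, DESeq2 and GRCh38 but no role for them. Which tool counted the reads, and whether it used strand, is not given in the sources used here. Dividing the deposited counts by gene length and by a single number per library, 0.948 to 1 times the total, returns the FPKM to a relative deviation of at most 2.18e-08.

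The 9 genes and all gene lists were chosen with earlier results of these data known. Counts were tested in edgeR 4.0.16 (R 4.3.3): filterByExpr, TMM scaling, 1 robust quasi-likelihood fit of 21 libraries in 7 groups with 14 residual degrees of freedom, and Benjamini-Hochberg adjustment over 16196 genes at 0.05. The common biological coefficient of variation was 0.0436. A called gene has an adjusted p under 0.05. Each standard error is the fold change divided by the square root of its F statistic. The contrasts were each dose against 0 µM, 10 µM against the mean of the 4 lower doses, and an F-test over those 5 doses. The tests were also run on simulated counts, whose spread was set from the fit of the real data. No replicates were merged, since chi-square values divided by their degrees of freedom were 2.69 to 12.3 in the 21 replicate pairs, above sampling noise. Mitochondrial transcripts took 5.61% to 6.63% of counts.

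Of 217 list entries 213 matched by symbol and 4 by a newer symbol. Named genes were the 9 hosts, overlapping genes with at least 50 counts (1 is not reported here), the 4 genes with the smallest p at 100 µM in each list, and the 5 nearest to ZFAS1 and to GAS5. Alternatives were DESeq2 1.42.0, DESeq2 size factors, limma 3.58.1 on log2(FPKM + 1), other filters, an offset for gene length, a replicate block, fits of the compared libraries only and each library left out. The deposited FPKM and counts per library total were added as scales after the data were seen. Starts and overlaps were read from GENCODE 29, whose coordinates equal the table's for 58690 of 58735 genes. Figures were drawn with matplotlib 3.10.9.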

Additional observations from a re-analysis of the deposited data

How the results depend on the processing

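All libraries at 100 µM lay above the other 18 in 7 of the 9 host genes on TMM-scaled CPM, in 7 on counts per library total and in 6 on deposited FPKM (both of these scales chosen after seeing the data), and in 5 with the offset for gene length. SNHG6 turned to -0.0071 at 100 µM with that offset. In the comparison of 10 µM with the lower doses, small values changed sign when 1 library was left out: SNHG12 ran from -0.078 to 0.012 and SNHG15 from -0.036 to 0.012, both positive without 10 µM replicate 1. SNHG5 ran from -0.018 to 0.053, negative without 10 µM replicate 2 (-0.00024) or 3, and SNHG6 from -0.014 to 0.029, negative without replicate 3. None of these 4 passed the test in any setting run. Over all genes, the calls at 10 µM against the lower doses were 36, but 62 with DESeq2, 8 with limma and 104 with no filter, and the calls over the 5 doses were 16, but 58 with DESeq2, 7 with limma and 150 with no filter; the cause was not tested. Leaving out 1 library gave 699 to 1822 calls at 100 µM, where all libraries gave 1390, 7 to 57 at 10 µM, 6 to 20 over the 5 doses, and 5 to 9 other noncoding hosts higher. Fewer samples enter each of those fits. Replicate numbers did not pair the libraries: the correlations of deviations between same-numbered 100 µM and untreated libraries were -0.0573, 0.152 and -0.0406, and 1 of 3 libraries at 100 µM correlated best with its own number. With the replicate block there were 1350, 32 and 15 calls in the 3 tests, and 8 other noncoding hosts were higher.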
